A study of Rattus norvegicus with 74 samples.

Results

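MiR-21 was followed as both of its mature strands, miR-21-5p and miR-21-3p, in whole kidneys of untreated rats of the F344 (Fischer) strain. The strands are 2 of the 677 miRNAs on the Agilent rat array and were chosen by name. Of the 2, only miR-21-5p is among the 311 miRNAs that were detected on at least 1 array and are called expressed here. Females and males had been killed while young (2, 5, 6 or 8 weeks old), as young adults (15 or 21 weeks old) or when old (78 or 104 weeks old), with 4 or 5 animals in each of the 16 groups and 74 arrays in all. No group received a treatment or carried an engineered allele, estrous cycles were not synchronized, and each array held the RNA of 1 animal. Each sample was ground whole kidney. In such bulk RNA, a larger number of cells of 1 type and more RNA per cell cannot be told apart.

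MiRNAs are short RNAs that guide Argonaute proteins to messenger RNAs through a seed near their 5′ end, which lowers the stability or translation of the target. MiR-21 is cut from a hairpin whose 5′ arm gives the abundant guide strand and whose 3′ arm gives a passenger strand that is usually degraded. In the kidney, miR-21 is known to be raised by transforming growth factor beta signalling, injury and inflammation, and in mouse models its loss or inhibition lessens interstitial fibrosis. Known targets of the 5p strand include Pdcd4 and Ppara.

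The sequences below are shown because the array measured each strand with its own probes. They are from RefSeq on the GRCr8 assembly, in which the rat Mir21 hairpin is at chr10:71902600-71902691 on the minus strand. The annotation used here puts no other gene over the hairpin, and Vmp1, on the same strand, lies 531 bases away on the upstream side of the hairpin. The 5p strand is at chr10:71902653-71902674 and the 3p strand at chr10:71902615-71902636, 22 bases each. In the hairpin of 92 bases the capitals mark both mature strands, and in the mature strands they mark the seed, bases 2 to 8.
Mir21 hairpin: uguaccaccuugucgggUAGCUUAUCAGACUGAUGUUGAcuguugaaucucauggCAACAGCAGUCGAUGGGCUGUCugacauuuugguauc
rno-miR-21-5p: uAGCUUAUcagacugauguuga
rno-miR-21-3p: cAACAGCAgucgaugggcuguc
The seeds of the 2 strands differ, and 0 of the other miRNAs among the 693 rat mature sequences searched shared the seed of either strand.

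Levels are given as normalized intensity, the background-subtracted total gene signal of a miRNA divided by the 75th percentile of the expressed miRNAs on the same array. These percentiles ranged from 81.2 to 283, and between 190 and 264 miRNAs were detected per array. The arrays lay on 10 slides. Ages of 2 to 8 weeks were on 5 slides and ages of 15 to 104 weeks on 5 others, apart from 1 array of a 15-week female, so that changes from 8 weeks or younger to 15 weeks or older and a change of slides cannot be told apart. Females and males of an age were placed on the same 5 slides, apart from that array. Sample identities are those of the scanner files, because in the deposited table of normalized values 5 of the 74 columns matched the array that their name points to, and 69 matched a different array. Which of the namings is right is not settled by this mismatch. By the names of that table, the late changes described here were not present: the values are given in the closing section.

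The passenger strand miR-21-3p was not detected on any of the 74 arrays. Its 4 probes, with 5 spots each, gave an average background-subtracted spot intensity between -1.41 and 1.25 per array (median -0.25), in the arbitrary units of the scanner. On every array this was below the average of the 434 negative control spots, which ranged from 1.98 to 12.8 (median 2.81). Of 1480 miR-21-3p spots, 2 (0.135%) were well above background, 1 in each of 2 males of 2 weeks, replicates 2 and 3. In the 78-week males the average ran from -1.15 to 1.25 and in the 104-week males from -0.45 to 0.60, against -0.41 to 0.43 in 78-week and -1.27 to 0.25 in 104-week females. These ranges overlapped, and no age or sex stood apart. The lowest total gene signal that was called detected on an array ranged from 1.39 to 5.86. It belongs to other miRNAs and is another measure than the average spot intensity, so that it gives no exact bound for miR-21-3p. No fold, test or correlation was computed for miR-21-3p. A change below the limit of detection of its probes would not have been detectable on these arrays.

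**Figure D1:**
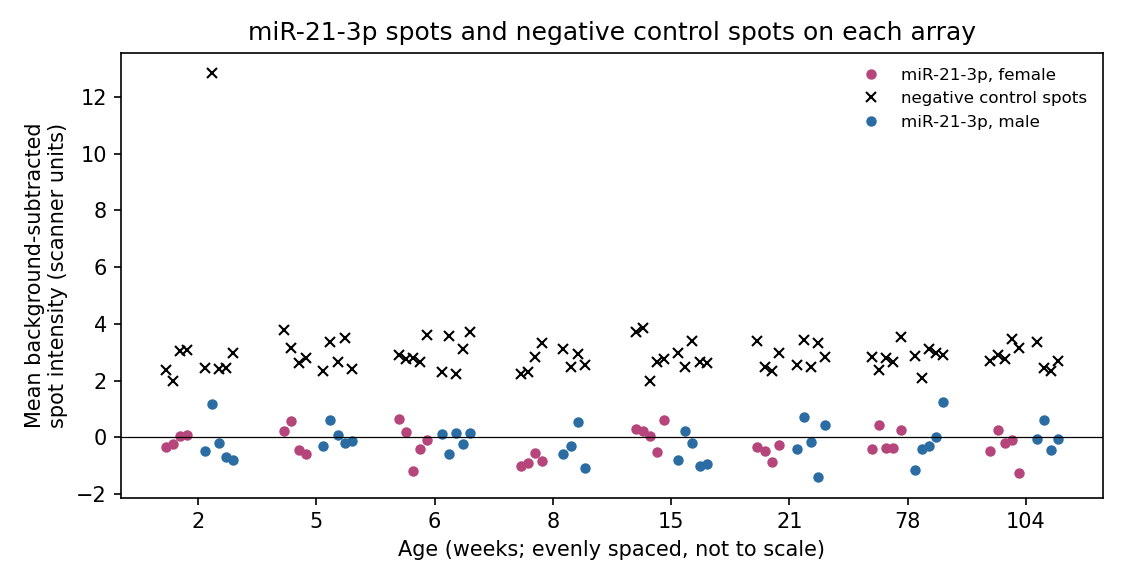
Average background-subtracted intensity of the 20 miR-21-3p spots on each array (coloured points, scanner units) and of the negative control spots of the same array (crosses), by age in weeks and sex. The miR-21-3p points lie between -1.41 and 1.25, below the cross of their own array on all 74 arrays.

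The guide strand miR-21-5p was detected on all 74 arrays. Its 2 probes, with 10 spots each, gave 1480 spots in all, of which all were well above background and 0 were saturated. Total gene signals ran from 1756 to 19491. The log2 values of the probes correlated at 0.978 (Pearson's r) over the 74 arrays, a description of probes that share arrays and scale.

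In young rats the level of miR-21-5p was low and the sexes overlapped. At 2 weeks, the normalized intensity of miR-21-5p was 25.7, 19.5, 21.8 and 20.1 in the 4 females and 16.8, 17.5, 17.2, 21.7 and 17.3 in the 5 males. At 5 weeks, it was 19.2, 20.4, 17.8 and 23.9 in females and 27.3, 17.8, 20.3, 22.6 and 18.7 in males. At 6 weeks, the females had 26.1, 23.7, 19.96, 21.4 and 28.46 and the males 21.5, 22.8, 22.9, 18.96 and 24.7. At these ages the ranges of the sexes lay across each other, and the 2-week males held the lowest value of the study. Among 8-week-old rats, values were 24.1, 27.3, 31.7 and 39.5 in females and 26.5, 25.1, 24.0 and 28.2 in males, and the females were spread more widely than the males.

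From 2 to 8 weeks the level of miR-21-5p was higher by 0.48 (log2) in females, with a standard error of 0.176 and an adjusted p of 0.0303 in limma, and by 0.52 in males (standard error 0.167, adjusted p = 0.00730). Both differences met the threshold on the adjusted p but not the fold threshold of 1.5, with folds of 1.39 and 1.44, and were not called. Among all expressed miRNAs, 21.2% were called between these ages in females and 29.9% in males. In males the change was called, at 0.59, without 2-week male replicate 4, and in both sexes, at 0.61, with another scaling, the 75th percentile over all miRNAs of the array. The limma adjusted p in females rose above 0.05 with probe 2 alone (0.0709), after quantile normalization (0.148) and after normexp background correction (0.854). With the 75th percentile over miRNAs detected on all arrays it was 0.189 in females. In males it rose above 0.05 after normexp (0.305).

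Young adults had levels below most old animals, and the 15-week means lay between those of 8-week males and 8-week females. At 15 weeks, the normalized intensity of miR-21-5p was 28.1, 24.4, 28.1, 30.6 and 28.5 in females and 28.7, 21.4, 31.2, 24.4 and 28.2 in males. At 21 weeks, it was 31.9, 25.2, 29.7 and 34.7 in females and 29.8, 34.5, 32.3, 34.9 and 30.05 in males. The sexes overlapped at both ages.

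In old rats the level was highest, and most males lay above the females. At 78 weeks, the normalized intensity of miR-21-5p was 33.6, 32.4, 34.6, 39.1 and 35.4 in the 5 females and 38.8, 48.0, 46.0, 56.1 and 118 in the 5 males. At 104 weeks, it was 40.6, 40.9, 45.0, 46.3 and 43.8 in the 5 females and 64.6, 92.6, 46.3 and 65.7 in the 4 males. At each of these ages the groups overlapped by a narrow margin, through the lowest male and the highest female. Of the 9 old males, 6 lay above every female of the study.

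**Figure D2:**
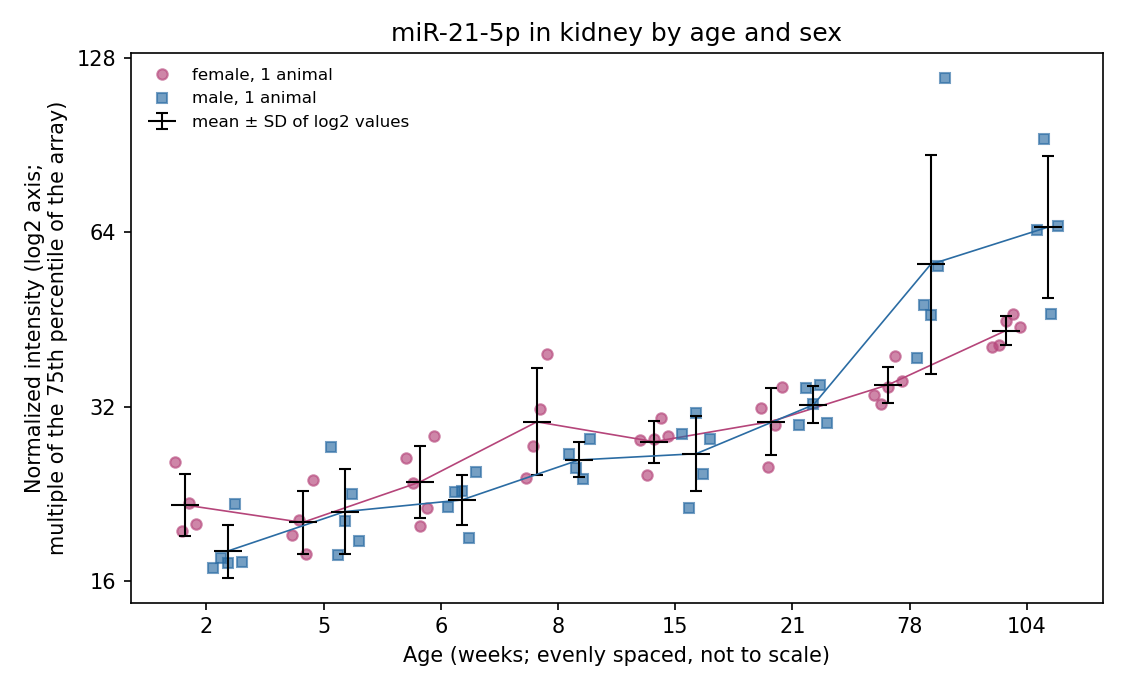
Normalized intensity of miR-21-5p (multiples of the 75th percentile of the array, log2 axis) in each animal against age in weeks, females as circles and males as squares, with the mean and SD of the log2 values in black. Values stay between 16.8 and 39.5 up to 21 weeks and reach 46.3 in old females and 118 in old males.

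The late change, from the mean of 15 and 21 weeks to the mean of 78 and 104 weeks, compares ages on the same set of slides, apart from the 1 array named above. In males the log2 level of miR-21-5p rose by 1.05, with a standard error of 0.115 and an adjusted p of 2.37e-11 in limma, a fold of 2.07. Of all expressed miRNAs, 25 (8.04%) were called in this comparison and 5.14% were called as higher in old males, and the rise of miR-21-5p was the seventh highest among the signed differences. All 9 old males (38.8 to 118) lay above all 10 males of 15 and 21 weeks (21.4 to 34.9), which held for 5 of the 311 expressed miRNAs (1.61%). In females the difference was 0.42 (standard error 0.115, adjusted p = 0.00654), a fold of 1.34 that was under the fold threshold, so that no change was called, beside 15 called miRNAs (4.82%). Old females (32.4 to 46.3) and young adult females (24.4 to 34.7) overlapped.

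The difference between the sexes in this late change was itself tested. Male minus female, it was 0.63 in log2 units (standard error 0.162, 95% interval 0.30 to 0.95, adjusted p = 0.00228 in limma) and was called, as were 24.1% of all expressed miRNAs, 7.07% with the higher and 17% with the lower change in males. This test and the late change within each sex rest on a spread shared by all 16 groups. The SD of the log2 levels was 0.627 and 0.409 in males of 78 and 104 weeks and 0.103 and 0.0842 in females. The standard errors thus understate the spread of old males and overstate that of old females. With each array left out in turn the male minus female difference of miR-21-5p stayed between 0.49 and 0.71 and was called each time. With arrays on the slides of 15 to 104 weeks alone and slide as a block, it was 0.61 (adjusted p = 0.0137). After background correction with normexp it was 0.79 with an adjusted p of 0.0957, and the call was lost.

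Step by step, 1 change between neighbouring ages was called for miR-21-5p, the rise from 21 to 78 weeks in males. It was 0.81 in log2 units with a standard error of 0.157 and an adjusted p of 6.52e-05 in limma, where 34 miRNAs (10.9%) were called. This value includes 78-week male replicate 6 at 118 and rests on the shared spread. The other 4 males of 78 weeks had 38.8 to 56.1 (median 47.0), beside 29.8 to 34.9 in 21-week males. The rise is smaller without replicate 6, and whether its call would hold was not tested. In females the same step was 0.21 (standard error 0.167, adjusted p = 0.502) and the step from 78 to 104 weeks 0.31 (standard error 0.157, adjusted p = 0.217), beside 4.18% and 3.86% of all miRNAs called. At the younger steps, in order of age, 20.3%, 1.29%, 0.322%, 2.57% and 0.643% of all miRNAs were called in females and 24.8%, 0%, 0%, 0.965% and 2.25% in males, without miR-21-5p. The last step in males, with 0.965% called, gave 0.21 (adjusted p = 0.689). Taken from 21 weeks directly to 104 weeks, the level rose in males by 1.02 (adjusted p = 1.44e-06, 14.8% of all miRNAs called), and the difference of 0.52 in females was not called (adjusted p = 0.0512, 2.89%). From 2 to 104 weeks, across the change of slides, the level rose by 0.9994 in females (adjusted p = 7.70e-07), a fold of 2.00, and by 1.86 in males (adjusted p = 5.26e-15), a fold of 3.62, beside 24.8% and 35.4% of all miRNAs called.

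An age effect over the 8 ages was called in both sexes by limma's moderated F test, with an adjusted p of 1.85e-08 in females and 1.02e-09 in males, beside 36.7% and 45.3% of all miRNAs. Tested apart, the ages of 15 to 104 weeks gave a call in both sexes (adjusted p = 0.000226 in females and 0.00260 in males), against 7.40% and 16.7% of all miRNAs. Those of 2 to 8 weeks gave none for miR-21-5p (adjusted p = 0.0462 and 0.00911), because the widest differences between ages, 0.58 and 0.52, were under the fold threshold, while 21.2% and 30.2% of all miRNAs were called. The interaction of age and sex had an adjusted p of 0.00172, and was called for 27.7% of all miRNAs.

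Of the 8 ages, the sex difference of miR-21-5p was called at the oldest 2, with the higher level in males. In 78-week-old rats it was 0.69 in log2 units, with a standard error of 0.157 and an adjusted p of 0.000761 in limma, a fold of 1.61, beside 21 called miRNAs (6.75%). Without male replicate 6 it was 0.42 (adjusted p = 0.0198), under the fold threshold, and the call was lost. In 104-week-old rats it was 0.59 (standard error 0.167, adjusted p = 0.00542), a fold of 1.51, beside 19 called miRNAs (6.11%). This fold is close to the threshold, and without male replicate 2 the difference was 0.43 (adjusted p = 0.0867), while without female replicate 1 or 2 it was 0.57 in both cases, under the fold threshold. Each of these lost the call. The calls at both ages were also lost when each age was fitted alone, with adjusted p-values of 0.146 and 0.0595, so that they rest on the spread shared by all 16 groups.

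The 5 slides with animals of 78 weeks each carried 1 female and 1 male of that age, and the male had the higher level of miR-21-5p on all 5, by 0.21 to 1.74 on the log2 scale (median 0.52). Of the slides with 104-week animals, 4 carried 1 of each sex, and the male was higher on all 4, by 0.04 to 1.19 (median 0.62). The smallest of these differences, on 1 slide, was between 46.3 in the male and 45.0 in the female.

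Before 78 weeks no sex difference of miR-21-5p was called, while from 2 to 21 weeks 3.86%, 0%, 0.322%, 1.29%, 3.54% and 4.82% of all miRNAs were called at the 6 ages in turn. The log2 differences, male minus female, were -0.26 at 2 weeks (95% interval -0.60 to 0.07, adjusted p = 0.397 in limma), 0.06 at 5 weeks (-0.27 to 0.40), -0.10 at 6 weeks (-0.42 to 0.21), -0.22 at 8 weeks (-0.57 to 0.13), -0.07 at 15 weeks (-0.38 to 0.25) and 0.10 at 21 weeks (-0.24 to 0.43). These intervals include 0, and at 5, 6, 8, 15 and 21 weeks they leave out a 1.5-fold difference in either direction, which is 0.58 on the log2 scale. The direction at 2, 5, 8, 15 and 21 weeks turned under another scaling or background correction, with 1 probe alone or when 1 array was left out.

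**Figure D3:**
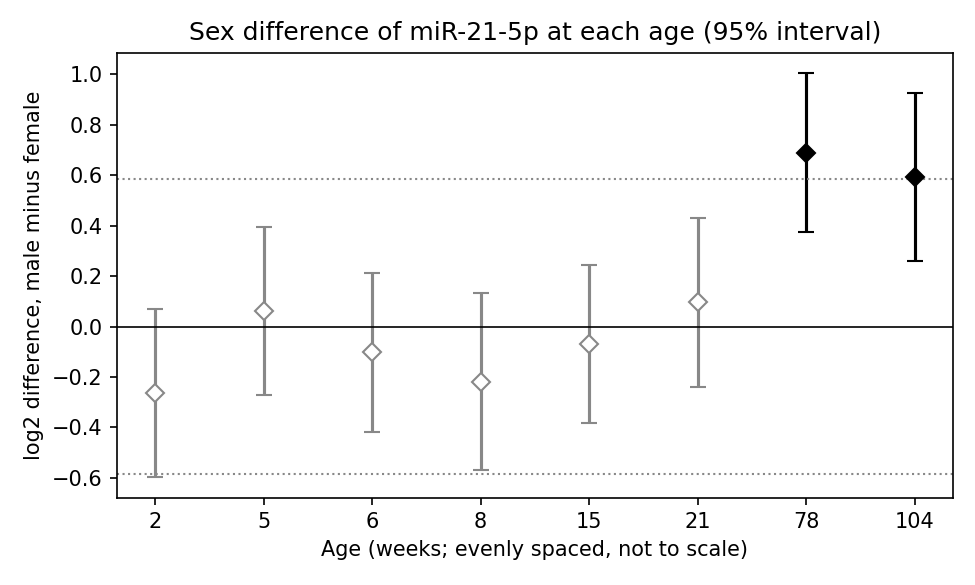
Difference of the mean log2 level of miR-21-5p, male minus female, at each age in weeks, with 95% intervals from limma. Filled points are called and open points are not, and the dotted lines mark a 1.5-fold difference (0.58). The points at 78 weeks (0.69) and 104 weeks (0.59) lie above the upper line.

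In the order of the 16 group means, 2-week males had the lowest level of miR-21-5p and 104-week males the highest. Below 104-week males (mean log2 level 6.03) came 78-week males (5.82), 104-week females (5.44), 78-week females (5.13), 21-week males (5.01) and 21-week females (4.92), followed by the 8- and 15-week groups, and the groups of 2 to 6 weeks were lowest. No neighbours in this order differed past the threshold. The widest gap was between 78-week males and 104-week females, 0.38 in log2 units with an adjusted p of 0.115 in limma.

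With all animals included, the spread of miR-21-5p between animals was largest in old males. Its normalized intensity was 61.4 ± 32.3 (SD, n = 5) in 78-week males and 67.3 ± 19.1 (SD, n = 4) in 104-week males, coefficients of variation of 52.6% and 28.4%. In females of these ages it was 35.0 ± 2.56 (SD, n = 5) and 43.3 ± 2.52 (SD, n = 5), coefficients of 7.32% and 5.82%. On the log2 scale, only 5 of the 166 miRNAs detected on all arrays had a larger SD than miR-21-5p (0.627) in 78-week males, and 16 in 104-week males (0.409). In 78- and 104-week females, 116 and 139 of the 166 had a larger SD (0.103 and 0.0842 for miR-21-5p). In males these values depend on single animals: without replicate 6 of 78 weeks the coefficient was 15.1% and the SD 0.219, and without replicate 2 of 104 weeks they were 18.5% and 0.285, below the 21.8% and 0.307 of 8-week females. The difference in spread was not tested.

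The animal with the highest level, 78-week male replicate 6 at 118, did not stand apart in the measures of its array. Its 75th percentile was 165, beside 127.6 to 211 in the other 4 males, and 229 miRNAs were detected, beside 223 to 240. The other 4 males of 78 weeks had miR-21-5p at 38.8 to 56.1.

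The authors had also graded renal fibrosis in kidney sections, and 18 of the 19 old animals could be matched to a grade by week, sex and replicate number, a match that rests on the sample names of the scanner files. Over these 18 animals, the log2 level of miR-21-5p and the grade had a Pearson's r of 0.62 (two-sided permutation p = 0.00808, adjusted over 6 relations 0.0242) and a Spearman's rho of 0.74 (permutation p = 0.000520, adjusted 0.00312). The 2 animals farthest from the median level were 78-week male replicate 6 and 104-week male replicate 2. Without both, r was 0.44 (permutation p = 0.0857) and rho 0.66 (permutation p = 0.00529). The relation in Pearson's r was then no longer past the threshold, and that in ranks stayed past it. With single animals left out, the adjusted p of Pearson's r rose above 0.05 without 104-week male replicate 2. It also did so without 78-week female replicate 1, 3 or 6. Of 228 miRNAs that at least 50% of the arrays had detected, 12 (5.26%) had a higher r with the grade, and the median over them was -0.11.

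These animals differ in age and sex, and the relation was therefore also computed within each. Within females, which span both ages, r was 0.76 (n = 10, permutation p = 0.0257, adjusted 0.0514) and rho 0.72 (permutation p = 0.0339, adjusted 0.0678). Within males, r was 0.20 (n = 8, exact permutation p = 0.632, adjusted 0.632) and rho 0.18 (exact permutation p = 0.679). No relation was detectable among the males, whose levels varied most.

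Within single ages both sexes were present. At 78 weeks r was 0.69 (n = 9, exact permutation p = 0.00238, adjusted 0.0143) and rho 0.90 (exact permutation p = 0.00357, adjusted 0.0107), and at 104 weeks r was 0.47 (n = 9, exact permutation p = 0.139, adjusted 0.208) and rho 0.41 (exact permutation p = 0.333). Leaving out the 2 animals farthest from the median of each set gave an r of 0.51 in females (exact permutation p = 0.250), -0.38 in males (exact permutation p = 0.5), 0.89 at 78 weeks (exact permutation p = 0.0143) and 0.00073 at 104 weeks (exact permutation p = 1). With the mean of each age and sex removed from both measures, r was 0.20 (n = 18, permutation p = 0.531, adjusted 0.632) and rho 0.18 (permutation p = 0.551). The relation over all 18 animals was thus not detectable within the groups of age and sex.

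The 5 miRNAs whose pattern over the 74 arrays was most like that of miR-21-5p, among 227 others with detection on 50% of the arrays or more, were miR-146b-5p (Pearson's r = 0.872 of log2 values), miR-142-3p (0.872), miR-34a-5p (0.811), miR-223-3p (0.774) and miR-146a-5p (0.722). The median r over the 227 was -0.07. These correlations describe arrays that share age, sex, slides and scale, and no test was made of them. Over the 19 arrays of 78 and 104 weeks the r values of the same 5 were 0.925, 0.870, 0.694, 0.875 and 0.542. MiR-142-3p and miR-223-3p are typical of blood-derived leukocytes, the miR-146 pair is induced by inflammatory signalling, and miR-34a-5p is a target of p53. Their sequences are shown because none has the seed of miR-21-5p. Capitals mark bases 2 to 8.
rno-miR-146b-5p: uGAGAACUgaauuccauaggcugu
rno-miR-146a-5p: uGAGAACUgaauuccauggguu
rno-miR-142-3p: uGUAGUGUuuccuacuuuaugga
rno-miR-34a-5p: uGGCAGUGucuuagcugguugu
rno-miR-223-3p: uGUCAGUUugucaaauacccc
The miR-146 pair has 1 seed in common, and the seeds of the others differ from it, from each other and from that of miR-21-5p.

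These 5 were picked for their likeness over the same arrays, so their late changes are given as a description, with no test. On the log2 scale the late change of miR-146b-5p was 1.11 in males and 0.34 in females. For miR-142-3p it was 1.30 in males and 0.65 in females, and for miR-223-3p 0.87 and 0.35. MiR-34a-5p had nearly equal values, 1.12 in males and 1.04 in females, as did miR-146a-5p at 0.29 and 0.27.

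**Figure D4:**
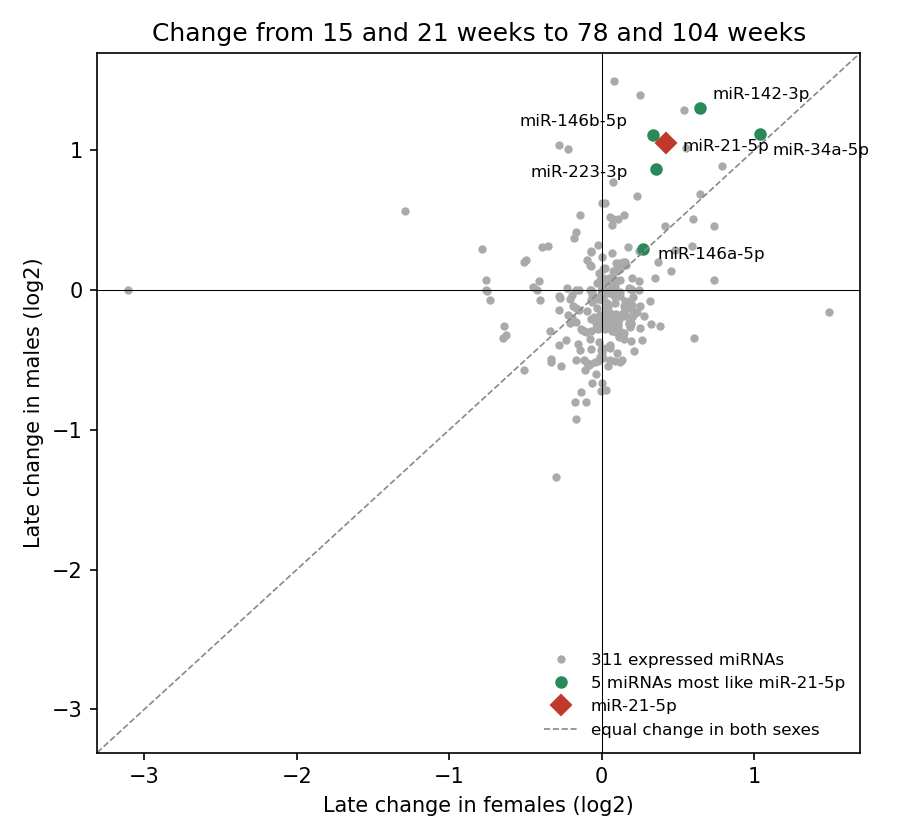
Late change (log2, mean of 78 and 104 weeks minus mean of 15 and 21 weeks) of the 311 expressed miRNAs, females on the horizontal and males on the vertical axis, with a dashed line of equal change. MiR-21-5p (0.42 in females and 1.05 in males), miR-146b-5p, miR-142-3p and miR-223-3p lie above the line, and miR-34a-5p and miR-146a-5p lie close to it.

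Other miRNAs known to promote fibrosis were read as a list of 12, of which 11 were matched by name on the array and 8 were expressed. In the late change in males, 3 of the 8 rose and 0 fell, beside 8.04% called of all miRNAs, with a median of 0.41 against -0.04 over all 311. The risers were miR-132-3p (1.29, adjusted p = 1.47e-06 in limma), miR-34a-5p (1.12) and miR-199a-5p (0.63, adjusted p = 2.51e-10), which belongs to the miR-199a and miR-214 cluster of mesenchymal cells. MiR-192-5p, a renal epithelial miRNA on the same list, had a difference of -0.54 in males (adjusted p = 1.14e-11 in limma), under the fold threshold. MiR-382-5p, detected on 56 arrays, had -0.51 (adjusted p = 0.0331 in limma), also under it. An adjusted p under 0.05 at any fold was reached by 7 of the 8, the falls of miR-192-5p and miR-382-5p among them, beside 33.8% of all miRNAs. Of the 8 differences, 3 were negative. The summed level of the 8 was 26.2 to 30.8 in 21-week males, 24.3 to 28.1 in 78-week males and 24.6 to 28.5 in 104-week males. In females of these ages the sum was 26.3 to 28.5, 26.4 to 32.4 and 27.3 to 29.3. In females 1 of the 8, miR-34a-5p, rose and 0 fell, beside 4.82% called of all miRNAs, with a median of 0.03 against 0.01 over all miRNAs. The male minus female difference was called for 4 of the 8, beside 24.1% of all miRNAs, higher in males for miR-199a-5p, miR-199a-3p and miR-214-3p and lower for miR-192-5p. These 4 also stand among the markers of cell types below.

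Of 18 miRNAs known to limit fibrosis, all were expressed and 0 were called in the late change in either sex. With limma, 13 of the 18 had an unadjusted p under 0.05 in males and 3 in females, beside 39.5% and 19.6% of all miRNAs. An adjusted p under 0.05 was reached by 9 and 2 of the 18, with folds under 1.5, beside 33.8% and 11.3% of all miRNAs at any fold. Those in males were all falls, and those in females were rises, of miR-29a-3p (0.37) and miR-29b-3p (0.46). The median late change was -0.21 in males and 0.04 in females. In males the differences of largest size in the list were those of miR-30e-5p (-0.50, adjusted p = 5.25e-05), miR-30c-5p (-0.45), miR-30b-5p (-0.42) and miR-429 (-0.26, a member of the miR-200 family that maintains the epithelial state). The male minus female difference was called for 6 of the 18 (33.3%), all lower in males, and was negative for all 18. Of all miRNAs, 17% were called as lower and 24.1% in either direction.

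Among the markers of cell types, some leukocyte miRNAs rose in old males as miR-21-5p did, and 3 of the list are also among the 5 most like it. Of 6 leukocyte miRNAs, miR-155-5p was not matched by name, and miR-142-5p was detected on 10 arrays only. Of the 5 expressed, 3 rose in the late change in males and 1 in females, beside 5.14% and 2.25% of all miRNAs. The risers in males were miR-142-3p, miR-142-5p and miR-223-3p. MiR-150-5p (0.52 in males and 0.06 in females) and miR-146a-5p (0.29 and 0.27) were not called. In the sex difference, 3 of the 5 were called as higher in males for 78-week-old rats and 4 for 104-week-old rats, beside 3.54% and 3.22% of all miRNAs, and 0 as lower. The summed normalized intensity of these 5 was 8.46 to 9.77 in 21-week males, 9.98 to 13.1 in 78-week males and 11.7 to 16.3 in 104-week males, and 7.18 to 8.35, 8.12 to 9.59 and 8.98 to 9.995 in the females of these ages. Male replicate 6 of 78 weeks, with the highest miR-21-5p, also had the highest leukocyte sum of its group. This was not particular to leukocytes: its sums for mesenchymal (19.8) and red cell markers (3.12) were also the highest of the group. Its sums for renal epithelial (46.9) and endothelial markers (13.1) were the lowest. The part of leukocytes in the level of miR-21-5p was not tested.

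**Figure D5:**
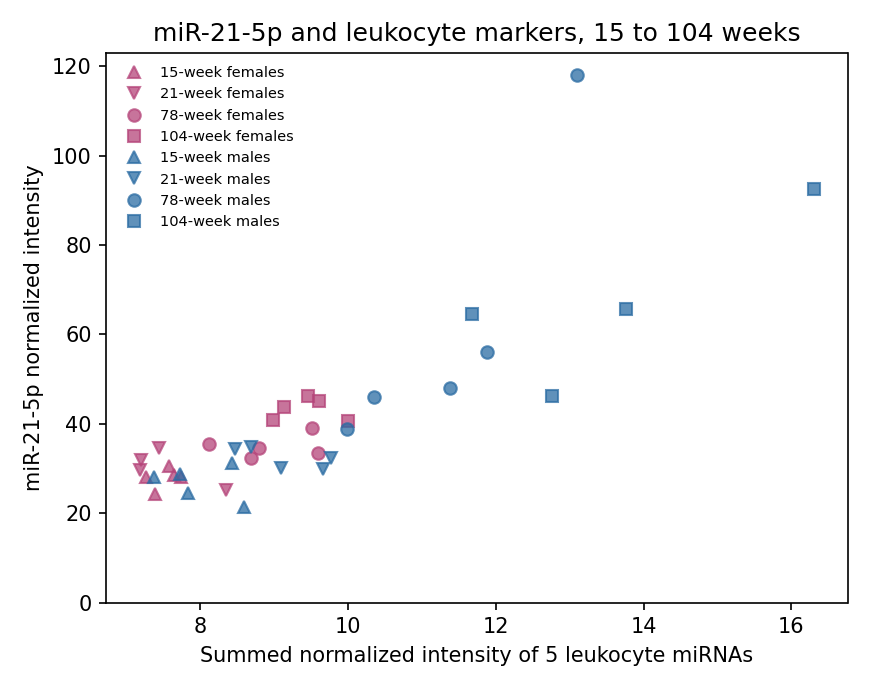
Normalized intensity of miR-21-5p against the summed normalized intensity of 5 leukocyte miRNAs in each animal of 15 to 104 weeks, females in red and males in blue, with a symbol for each age. The old males reach sums of 16.3 and miR-21-5p levels of 118, while all females stay at or below 9.995 and 46.3.

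Of the 5 markers of mesenchymal cells and fibroblasts, 1 (miR-199a-5p) rose in the late change in males and 0 in females, beside 5.14% and 2.25% of all miRNAs. The male minus female difference was called for 3 of the 5, all higher in males, beside 7.07% of all miRNAs called as higher and 24.1% in either direction. Their summed level was 17.9 to 19.8 in 78-week males and 19.8 to 23.0 in 104-week males, and 15.6 to 20.6 and 18.2 to 20.8 in the females. The labelled tissue was checked on 6 markers of renal epithelium, and all 6 were detected on all arrays. Among them miR-194-5p fell by 0.60 in the late change in males, and 0 were called in females, beside 8.04% and 4.82% of all miRNAs. The male minus female difference was called for 5 of the 6, all lower in males, beside 17% of all miRNAs called as lower and 24.1% in either direction. Their sum was 64.1 to 68.0 in 21-week males, 46.9 to 61.0 in 78-week males and 42.4 to 51.0 in 104-week males, beside 57.6 to 69.4, 61.8 to 71.5 and 59.5 to 73.1 in females. Of the endothelial markers 1 of 4 (miR-222-3p) and of the red cell markers 1 of 2 expressed (miR-451-5p) rose in males, and miR-451-5p also rose in females. Among the markers of striated muscle, miR-1-3p and miR-133a-3p were not detected on any array, and of the 2 others miR-206-3p, detected on 17 arrays, fell by 0.73 in males. The liver marker miR-122-5p was not called in either sex. The part of these cell types in the level of miR-21-5p was not tested.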

How the data were processed

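The authors labelled kidney RNA of 74 rats with a cyanine dye and measured each on its own 1-colour Agilent miRNA array, with 20 spots for each miRNA. The values deposited per array are background-subtracted intensities, which Agilent Feature Extraction 10.7.3.1 (array annotation on rn4, per the file headers) combined into 1 total gene signal per miRNA, with 0.1 where a miRNA was not detected and no normalization between arrays. The authors' table of normalized intensities, scaled to the 75th percentile, served only as an alternative, because each of its 74 columns equalled 1 array within 0.1% but 69 were named for another sample.

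Total gene signals were scaled array by array to the 75th percentile over the 311 expressed miRNAs, values under 0.0171 were raised to it and log2 was taken. This floor does not touch miR-21-5p. Limma 3.58.1 in R 4.3.3 was fitted to all 311 miRNAs with a separate mean per group (16 groups) and 58 residual degrees of freedom, and p-values were adjusted by the Benjamini-Hochberg method over 311 miRNAs. Calls were made below an adjusted p of 0.05 where the fold reached 1.5. A male minus female difference in change and the interaction needed the adjusted p alone, and an age effect the adjusted p of an F test within a sex together with 1 or more pairs of ages at this fold (unadjusted p below 0.05). Fibrosis grades came from the study's supplementary material, not from the deposited files, and were matched to arrays by week, sex and replicate number. Correlations with the grade used exact permutations below 10 animals and 100000 permutations otherwise. The fit was checked on simulated data. Precision is limited by group sizes of 4 or 5 arrays.

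The members and the lists of miRNAs were chosen with earlier results of these data known. Beside the 2 strands, the rule named the 5 miRNAs most like miR-21-5p and up to 4 members of each fibrosis list by the size of their late change in males, together with markers of cell types. Alternatives were the floor before scaling, other sets for the 75th percentile, quantile normalization, normexp with an offset of 50, outlier spots left out, single probes, filters on detection, slide as a fixed or random block, the replicate number as a block, separate fits, the methods' t-test, no fold threshold and each array left out in turn. A fit on the slides of 15 to 104 weeks alone was added after the data had been seen.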

Additional observations from a re-analysis of the deposited data

Results flagged for a closer look

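The normalized intensity of miR-21-5p in 78-week male replicate 6, 118, lay far from the other 4 males of its group, with a gap to the nearest of 0.782 of the range of the group (critical value 0.710 for 5 samples). The same held for 2-week male replicate 4 at 21.7, with a gap of 0.863 of the range. Of 16 groups examined, 2 were marked in this way, and chance marks about 1 in 20 groups. The late change of miR-21-5p differed between the sexes by 0.63 on the log2 scale, higher in males, in the test of the difference itself (adjusted p = 0.00228 from limma).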

How the results depend on the processing

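The late change of miR-21-5p in males was called under all 14 alternatives but 1, the deposited table by its own column names, and with each array left out in turn (0.92 to 1.13). By those column names the late change was -0.16 in males, -0.15 in females and -0.0092 for their difference, the sex differences were 0.34 at 78 weeks, 0.045 at 104 weeks, 0.35 at 15 weeks, 0.079 at 8 weeks and 0.26 at 6 weeks, and the early change was called at 0.85 in males and 0.73 in females. Sorted by these names, groups accounted for a median of 39.5% of the variance of the expressed miRNAs, against 47.3% by the scanner files.

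The sex difference at 78 weeks lost its call after normexp (0.82), in separate fits and with the methods' t-test (0.69 in both, adjusted p = 0.146 and 0.169). That at 104 weeks lost it after quantile normalization (0.56), normexp (0.68), without outlier spots (0.56), with probe 1 alone (0.57), in separate fits and with the methods' t-test (0.59 in both, adjusted p = 0.0595 and 0.0739). With the replicate number as a block it was 0.54, also under the fold threshold. The numbers do not pair the samples: deviations of same-numbered females and males of an age correlated at 0.038 on average over 28 pairs, and the block changed no other call. The difference in late change between the sexes was 0.79 and not called after normexp. The early change was called, at 0.61 in both sexes, with the 75th percentile over all miRNAs. Age effects were not called within 2 to 8 weeks alone (0.58 in females and 0.52 in males).

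Small sex differences turned sign at 15 weeks (0.039 with the 75th percentile over miRNAs detected on all arrays, 0.20 over all miRNAs, 0.016 after quantile normalization, 0.0023 with probe 2 alone), at 21 weeks (-0.068 over miRNAs detected on all arrays) and after normexp at 2 weeks (0.19) and 8 weeks (0.30).

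With each array left out in turn, the sex difference ranged from 0.42 to 0.82 at 78 weeks, from 0.43 to 0.76 at 104 weeks, from -0.13 to 0.0088 at 15 weeks and from -0.030 to 0.14 at 5 weeks, and the early change in males from 0.48 to 0.59. Leaving out 78-week male replicate 6, 104-week male replicate 2, or 104-week female replicate 1 or 2 lost the call of that age.

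The correlation with the fibrosis grade was past the threshold under 5 of 10 alternatives. It was 0.76 within females, 0.20 within males, 0.47 within 104 weeks, 0.20 on deviations from group means and 0.44 without the 2 animals farthest from the median, none of them past it. With each animal left out it ranged from 0.49 to 0.72. The adjusted p rose above 0.05 when 78-week female replicate 1, 3 or 6 was left out, with r at 0.58, 0.58 and 0.59. It also rose above 0.05 without 104-week male replicate 2, with r at 0.49. The cause of these changes was not tested.

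The number of miRNAs called in the late change in males was 25, and 5 after normexp, 38 with the floor before scaling and 13 by the names of the deposited table. In females it was 15, and 1 after normexp. For the difference between the sexes it was 75, and 47 and 40 with the 75th percentile over miRNAs detected on all arrays and over all miRNAs, 10 after normexp and 0 by the table's names. At 78 and 104 weeks 21 and 19 were called, against 4 and 2 after normexp and 0 and 39 by the table's names. The count at 78 weeks was 12 without 78-week male replicate 6, and that at 104 weeks was 30 without 104-week male replicate 3. Slide as a fixed block could not be fitted for the age effect in males. The comparison of miR-21-5p with miR-21-3p was not run, because the 3p strand was not detected.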
